A study of Mus musculus with 4 samples.

Results

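The genes described here are Acta2, Actg2, Tagln, Cnn1, Mylk, Myh11 and Oxtr, the contractile genes of the mammary myoepithelium together with the oxytocin receptor. The 7 genes were taken by name from 21887 protein-coding mouse genes, and every Slug or Snail peak that touched a gene or the 20 kb on either side of it was read off. This gave 17 of 41612 Slug peaks and 12 of 28375 Snail peaks. All 7 genes were found in the RefSeq annotation, and none was left out.

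The peaks come from chromatin immunoprecipitation and sequencing (ChIP-seq), which maps the stretches of DNA that a protein occupies in fixed cells. Slug (encoded by Snai2) was mapped in pBl.1G, an untreated epithelial MMTV-PyMT breast cancer line labelled as high in Slug, with a rabbit monoclonal antibody to Slug. Snail (encoded by Snai1) was mapped in pBl.3G, an untreated mesenchymal MMTV-PyMT line labelled as high in Snail, with an antibody whose label names both Snail and Slug as targets. Such lines come from mice that carry the polyoma virus middle T gene under the mouse mammary tumour virus promoter, which is active in mammary epithelium, and each line is a single cultured line. Each factor had 1 library, and an input DNA library of each line was not analysed here. Factor, antibody and cell line therefore cannot be told apart in any difference between the lists, and no test between them was possible. Peak lists carry no expression values, so the labelled state of the cells and the activity of these genes were not checked.

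Myoepithelial cells form the outer, basal layer of mammary ducts and alveoli and squeeze milk out of the gland. Oxytocin binds its receptor on these cells, calcium rises, calmodulin activates myosin light chain kinase, and smooth muscle myosin then pulls on actin filaments. Slug is known as a factor of basal mammary cells. Snail and Slug both bind E-boxes with the core CAGGTG and are best known as repressors. The contractile genes are classic targets of serum response factor and its partners of the myocardin family, which act through an element called the CArG box.

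The sequences that bear most on the results are promoter windows from RefSeq (GRCm38.p6, the assembly of mm10), from 250 bases before to 50 after a listed start site, written 5′ to 3′ along the gene. Windows were listed for 4 of the 7 genes: Acta2, Cnn1, Mylk and Oxtr. No peak touched any of these 4. Of protein-coding genes with a listed window, 4.54% had a Slug peak on one and 51.1% a Snail peak. For Slug, none among 4 windows is thus near the share of all genes. The listed Mylk window lies inside the gene span, away from its low-coordinate end. The listed Oxtr window also lies inside its gene span, below the high-coordinate end at 112491035. The first 3 sequences below are member promoters without a peak, and the last 2 are promoters of neighbouring genes that carried peaks of both lists. Capitals mark CAGGTG or its reverse complement CACCTG, or, in Acta2 only, CArG boxes with at most 1 G or C among their 6 inner letters.
Acta2, minus strand, chr19:34255324-34255623: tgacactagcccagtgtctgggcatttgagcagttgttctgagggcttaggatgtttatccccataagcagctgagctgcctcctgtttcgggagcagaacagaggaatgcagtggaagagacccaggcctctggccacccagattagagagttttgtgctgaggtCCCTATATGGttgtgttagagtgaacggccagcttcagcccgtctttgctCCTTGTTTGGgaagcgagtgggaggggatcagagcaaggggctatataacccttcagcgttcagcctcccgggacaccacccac
Cnn1, plus strand, chr9:22099003-22099302: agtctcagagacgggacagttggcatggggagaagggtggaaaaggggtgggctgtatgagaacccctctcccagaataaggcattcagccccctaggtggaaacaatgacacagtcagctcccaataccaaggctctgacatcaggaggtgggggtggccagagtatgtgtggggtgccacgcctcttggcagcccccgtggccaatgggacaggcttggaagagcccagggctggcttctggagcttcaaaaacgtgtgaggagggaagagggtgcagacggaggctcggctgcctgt
Oxtr, minus strand, chr6:112489776-112490075: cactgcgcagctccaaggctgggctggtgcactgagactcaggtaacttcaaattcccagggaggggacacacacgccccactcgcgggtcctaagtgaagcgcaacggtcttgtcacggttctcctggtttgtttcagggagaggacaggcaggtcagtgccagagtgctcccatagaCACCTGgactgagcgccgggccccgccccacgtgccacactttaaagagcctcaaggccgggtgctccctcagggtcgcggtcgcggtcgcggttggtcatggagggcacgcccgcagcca
Elof1, minus strand, chr9:22117146-22117445: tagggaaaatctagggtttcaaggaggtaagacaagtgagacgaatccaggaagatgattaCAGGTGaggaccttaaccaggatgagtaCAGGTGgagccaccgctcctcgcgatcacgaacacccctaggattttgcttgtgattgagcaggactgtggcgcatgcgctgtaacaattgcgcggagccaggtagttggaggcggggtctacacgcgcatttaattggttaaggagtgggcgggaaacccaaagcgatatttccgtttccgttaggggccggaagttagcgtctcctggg
Hacd2, plus strand, chr16:35022171-35022470: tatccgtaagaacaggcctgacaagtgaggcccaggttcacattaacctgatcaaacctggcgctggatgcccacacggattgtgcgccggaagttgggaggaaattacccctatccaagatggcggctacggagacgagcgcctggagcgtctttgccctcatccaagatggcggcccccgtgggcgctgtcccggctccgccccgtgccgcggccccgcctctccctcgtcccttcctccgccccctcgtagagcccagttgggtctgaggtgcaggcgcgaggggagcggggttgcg

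The Acta2 window held 2 such CArG boxes, beginning 84 and 34 bases before the start site, and no CAGGTG. The Oxtr window held 1 CACCTG, beginning 71 bases before the start site. The windows of Cnn1 and Mylk held neither motif. Among all 32851 promoter windows searched on both strands, 20.2% held CAGGTG or CACCTG, and 9.98% held a CArG box of this kind. Windows touched by a Slug peak held CAGGTG or CACCTG in 39.1% of 1055 cases, and those touched by a Snail peak in 17.0% of 12017. The Elof1 window, which lies on the far side of Cnn1, held CAGGTG at 189 and 161 bases before the start, and both copies lay inside a Slug peak and a Snail peak. The Hacd2 window next to Mylk held none. A match describes letters only and does not show a bound site.

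Slug peaks lay in or near 6 of the 7 genes, all but Tagln, and Snail peaks in or near 5, all but Acta2 and Oxtr. Among all protein-coding genes 67.6% had a Slug peak under the same rule and 71.3% a Snail peak, so the Snail count was at the background and the Slug count little more than 1 gene above it. Actg2, Cnn1, Mylk and Myh11 had peaks of both lists, where 55.5% of all genes did. Acta2 and Oxtr had Slug peaks alone, a pattern of 12.0% of all genes, and Tagln had Snail peaks alone, a pattern of 15.8%. Longer genes collect more peaks. Of the shortest quintile of protein-coding genes 43.0% had a Slug and 41.6% a Snail peak, and of the longest quintile, with Mylk and Myh11, 91.6% and 81.7%.

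**Figure D1:**
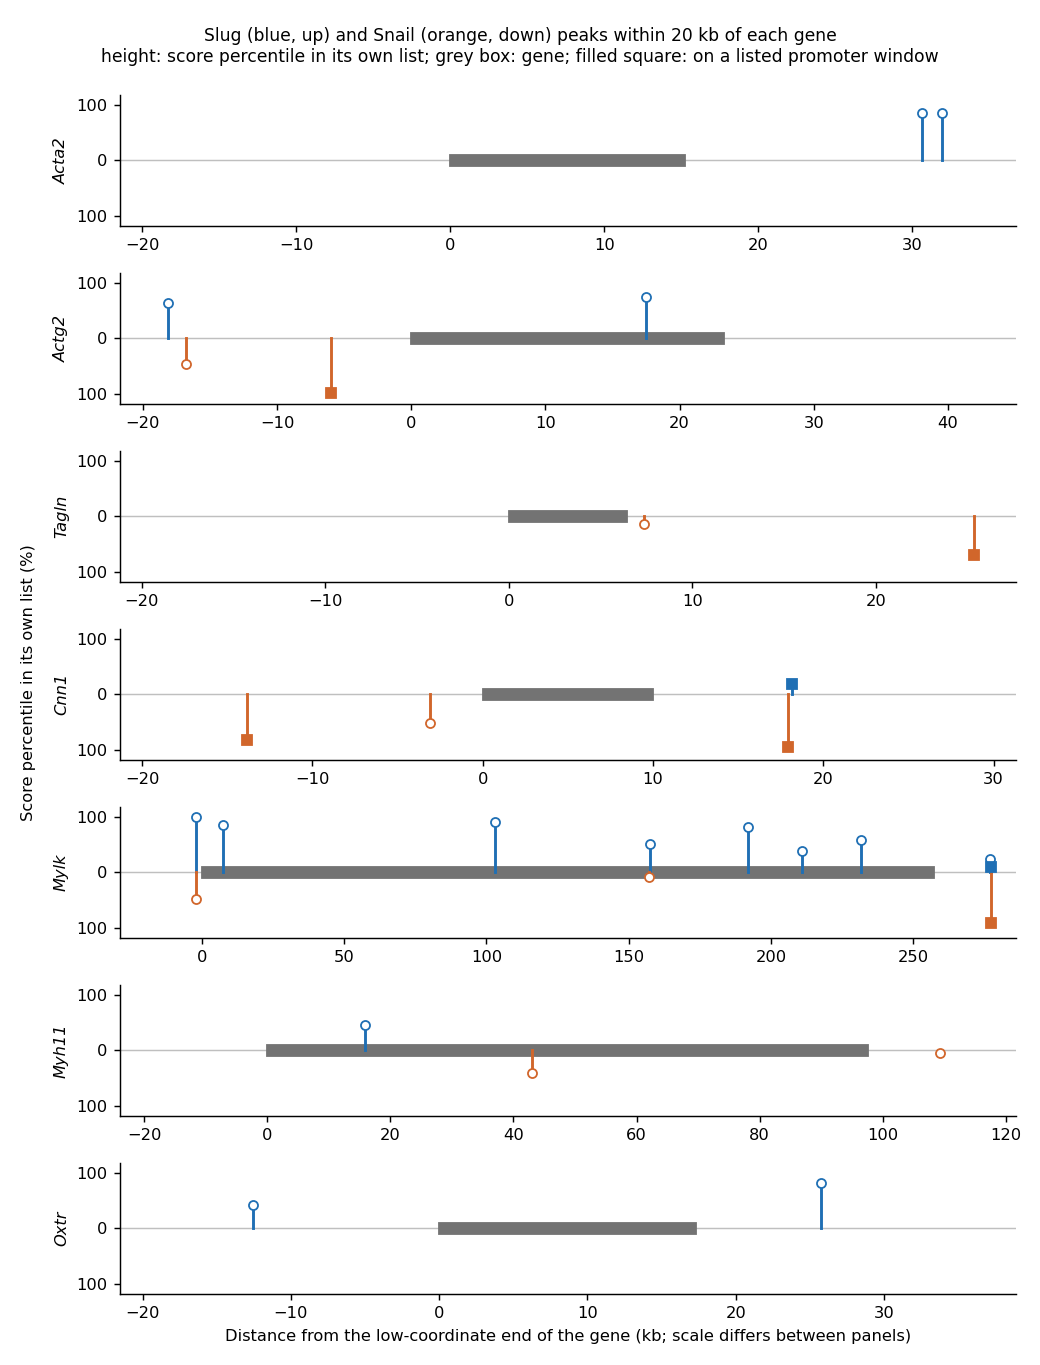
Each panel shows 1 gene as a grey box, with the distance in kb from its low-coordinate end on the x axis. Blue lines up are Slug peaks and orange lines down are Snail peaks, their height is the percentile of the authors' score within the peak's own list, and filled squares are peaks on a listed promoter window. Mylk holds 9 of the 17 Slug peaks, and the tall orange lines with squares all stand outside the grey boxes.

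The ends of the genes were nearly free of peaks. For Slug this was near the background, since few protein-coding genes had a Slug peak there and the members are few. No member had Slug peaks less than 1 kb from either end, against 13.0% of protein-coding genes. The only member with a Snail peak this close was Tagln, against 51.3% of protein-coding genes. Inside the gene, 2 members (Mylk and Myh11) had a Snail peak, against 58.7% of protein-coding genes, and 3 (Actg2, Mylk and Myh11) a Slug peak, against 37.2%. The other 10 Snail peaks lay outside the genes. Of the 17 Slug peaks 8 lay inside a member, 6 of them in Mylk.

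**Figure D2:**
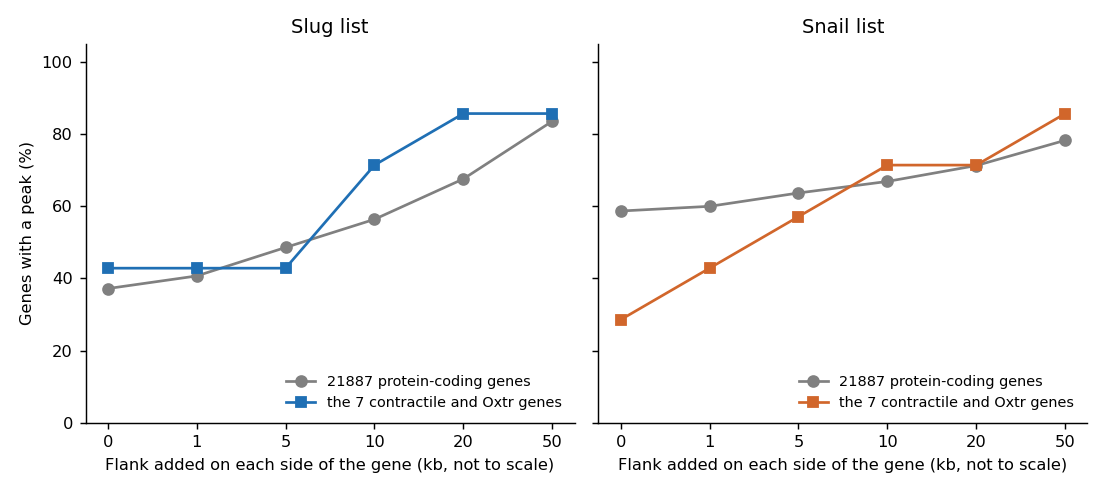
The y axis gives the percentage of genes with a peak and the x axis the flank in kb added on each side of the gene, for the Slug list (left) and the Snail list (right). Squares are the 7 genes and grey circles all 21887 protein-coding genes. With no flank 2 of 7 genes had a Snail peak against 58.7% of all genes and 3 of 7 a Slug peak against 37.2%, and with 20 kb the Snail values nearly met.

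Among the actin genes, Acta2 encodes smooth muscle alpha-actin, the usual marker of myoepithelial cells and of myofibroblasts (chromosome 19, 34240336 to 34255585). It had no peak inside. A pair of Slug peaks lay 15.2 and 16.6 kb beyond its high-coordinate end, on the upstream side of the minus-strand start site. They spanned 34270833 to 34271140, scoring 210, and 34272154 to 34272401, scoring 215. These were at percentiles 84.6 and 85.2 of the Slug list, 1.01 kb apart, and both lay within the lncRNA gene Gm31355. Of all Slug peaks 8.16% had another as close. The score is the authors' value for each peak and was used only to rank peaks within its own list. The nearest Snail peak to Acta2 was 32.6 kb away, at 34207166 to 34207783 inside Stambpl1, with a score of 67.4. Of all protein-coding genes 25.1% were at least that far from a Snail peak.

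Actg2 encodes smooth muscle gamma-actin, the enteric isoform (chromosome 6, 83512909 to 83536251). Its one internal Slug peak, at 83530267 to 83530554, scored 147 and stood at percentile 74.4 of the list. A second Slug peak, with a score of 110, lay 18.0 kb below the low-coordinate end inside Dguok, the gene of mitochondrial deoxyguanosine kinase. The highest-scoring Snail peak at any of the 7 genes lay at 83506387 to 83507419, 5.49 kb from Actg2, with a score of 1729 at percentile 98.5. It covered the listed Dguok start site rather than any base of Actg2. A weaker Snail peak inside Dguok scored 132 and did not overlap the Slug peak nearby.

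The actin-binding proteins were Tagln and Cnn1. Tagln encodes transgelin, or SM22-alpha, an actin cross-linking protein and an early smooth muscle marker (chromosome 9, 45929628 to 45936058). It was the only member with no Slug peak in its window, and the nearest was 59.2 kb from the gene. At least that distance from a Slug peak were 14.0% of protein-coding genes. The Snail peak closest to any end of a member lay 0.716 kb beyond the high-coordinate end of Tagln, at 45936774 to 45937234. Its score of 61.1 placed it at percentile 13.2 of the Snail list. It lay between Tagln and Sidt2, and the near end of Sidt2 was 623 bp away. The other Snail peak, with a score of 428 and a width of 1240 bp, covered the listed start site of Sidt2, which encodes a lysosomal membrane protein, 18.3 kb away.

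Cnn1 encodes calponin, which binds actin and restrains myosin in smooth muscle (chromosome 9, 22099221 to 22109221). No peak touched the gene. The Snail peak nearest to it, at 22095798 to 22096493, lay 2.73 kb before the low-coordinate end, on the upstream side of this plus-strand gene, with a score of 158 at percentile 51.2. A Snail peak that scored 776 covered the start site of Ecsit, a signalling and mitochondrial assembly factor, on the low side. On the high side a Snail peak that scored 1331 (22116711 to 22117645) covered the start site of Elof1, a transcription elongation factor. The only Slug peak in the Cnn1 window, at 22117305 to 22117470, lay wholly inside that Snail peak and over both CAGGTG copies printed above. Its score of 56.1 put it at percentile 18.5 of the Slug list.

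The myosin genes were Mylk and Myh11. Mylk encodes myosin light chain kinase, the calmodulin-dependent enzyme that starts contraction, and spans 257 kb (chromosome 16, 34745199 to 35002436). It had 9 Slug peaks and 3 Snail peaks. Of all protein-coding genes 1.82% had as many Slug peaks in their windows. Among the 839 genes within 1.5 times its length 16.0% did. Per 100 kb of window Mylk had 3.03 Slug peaks, against 1.89 over the merged windows of all protein-coding genes. The shorter windows of Acta2, Oxtr and Actg2, with 2 Slug peaks each, had 3.62, 3.49 and 3.16.

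The strongest Slug peak at any of the 7 genes lay 2.09 kb before the low-coordinate end of Mylk, the upstream side of this plus-strand gene, at 34742955 to 34743112. It scored 789, at percentile 99.1 of the list. It lay inside a Snail peak at 34742793 to 34743268 that scored 142, at percentile 48.3 of its own list. With 158 bp it was narrow for its score: of the 385 Slug peaks scoring as high the median width was 418 bp, and 8 were as narrow, this one included. Overlap with a Snail peak was common at such scores, at 71.2% of those 385 peaks against 12.1% of the whole Slug list.

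Inside Mylk the 6 Slug peaks had scores from 68.3 to 291. The highest, at 34848130 to 34848422, was at percentile 91.3 of the list and had no Snail partner. Next came the peak closest to the low-coordinate end, which spanned 34752560 to 34752817 and scored 221. The peaks that scored 192 and 68.3 lay within the lncRNA genes 1700119H24Rik and E130310I04Rik, which lie inside the span of Mylk. The Slug peak at 34902428 to 34902681, with a score of 83.6, was covered in full by a Snail peak of 384 bp that scored 56.3. The listed Mylk start site, at 34784950, is internal to the gene span, and the nearest Slug peak was 32.1 kb from it.

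Beyond the high-coordinate end of Mylk one Snail peak spanned 35021902 to 35022743 and scored 1130. It covered the start of Hacd2, an enzyme gene of fatty acid elongation, and that of the lncRNA gene LOC105246106. A pair of weak Slug peaks, with scores of 58.2 and 53.0, lay inside it. These 3 peaks were 19.5 to 19.9 kb from Mylk, and the last Slug peak and the Snail peak crossed the edge of the window.

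Myh11 encodes the smooth muscle myosin heavy chain, the most restricted marker of the contractile state (chromosome 16, 14194527 to 14292188). Although it spans 97.7 kb, it had 1 Slug peak, spanning 14210254 to 14210409 and scoring 75.4, at percentile 45.6. Its internal Snail peak, at 14237340 to 14237798, scored 114 at percentile 41.7, and the internal peaks of the lists did not overlap. A second Snail peak, 11.5 kb beyond the high-coordinate end inside Cep20, scored 53.0, close to the lowest accepted score of 50. Myh11 had the fewest Slug peaks for its window of the 6 genes with any, at 0.726 per 100 kb. Among the 2342 genes within 1.5 times its length, 89.0% had at least as many Slug peaks and 63.1% at least as many Snail peaks.

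Oxtr encodes the oxytocin receptor, the G protein-coupled receptor through which the hormone triggers milk ejection (chromosome 6, 112473683 to 112491035). It had Slug peaks on both sides and none inside. The stronger, at 112499186 to 112499643, lay 8.15 kb beyond the high-coordinate end, on the upstream side of the minus-strand start site. It scored 183, at percentile 81.1, and its 458 bp made it the widest of the 17 Slug peaks, at percentile 96.9 of the list by width. The other, with a score of 71.8, lay 12.5 kb below the low-coordinate end, inside Cav3, which encodes the muscle caveolin. The nearest Snail peak was 205 kb from Oxtr, and 10.9% of protein-coding genes were as far from one. The CACCTG in the Oxtr promoter window printed above lay under no peak.

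The 12 Snail peaks fell into separate ranges according to whether they touched a listed promoter window. The 5 on such a window, those of Dguok, Sidt2, Ecsit, Elof1 and Hacd2 (with LOC105246106), scored from 428 to 1729 and were 842 to 1240 bp wide. The other 7 scored from 53.0 to 158 and were 384 to 696 bp wide. None of these promoters belongs to a member. No window was listed for Actg2, Tagln and Myh11, so a peak on their promoters could not be counted here. The whole Snail list showed the same contrast, with a median score of 669 for 9185 peaks on promoter windows and 97.1 for 19190 others. Of the 17 Slug peaks 2 touched a promoter window, those of Elof1 and Hacd2, with scores of 56.1 and 53.0. Above the Slug median of 81.1 were 11 of the 17 Slug peaks, and 6 of the 12 Snail peaks were above the Snail median of 151.

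**Figure D3:**
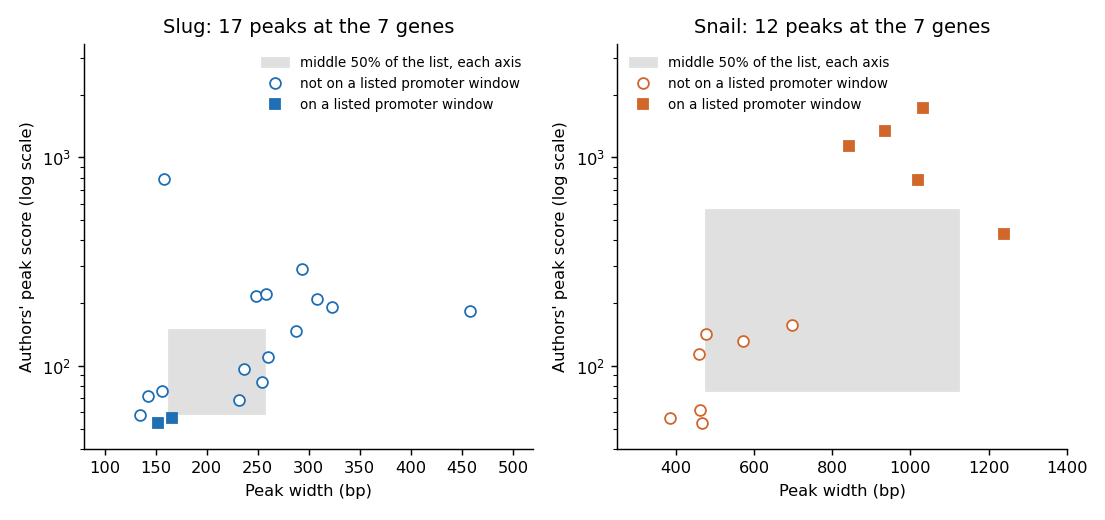
Each point is 1 peak at the 7 genes, with its width in bp on the x axis and the authors' score on a log y axis, for Slug (left) and Snail (right). Filled squares touch a listed promoter window, and the grey box spans the quartiles of the whole list on each axis. The 5 Snail squares lie at 428 and above and the open Snail circles at 158 and below, and the narrow Slug peak near Mylk stands alone at 789.

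Sites held in common were few in number, though their shares were above those of the whole lists. Of the 17 Slug peaks 5 (29.4%) overlapped a Snail peak, against 12.1% of the Slug list, and of the 12 Snail peaks 4 (33.3%) overlapped a Slug peak, against 16.6% of the Snail list. They lay at the Elof1 promoter, before Mylk, inside Mylk and at the Hacd2 promoter. Only Mylk thus had shared sites that lay in or within 5 kb of a member. Required to overlap by 50% of each peak, 1 pair was left, the one inside Mylk. The median width was 206 bp in the Slug list and 722 bp in the Snail list. Many Slug peaks inside a Snail peak therefore cannot meet this rule, and its share over the whole lists is not given here.

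In peaks per 100 kb, the windows of the 7 genes held 2.40 for Slug and 1.70 for Snail, over 707 kb in all. The merged windows of all protein-coding genes held 1.89 and 1.66. Without Mylk, which has the longest window, the values were 1.95 for Slug and 2.19 for Snail. The pooled Slug value thus depended on Mylk, but a high Slug density was not particular to it. Acta2, Oxtr and Actg2 had 3.62, 3.49 and 3.16 Slug peaks per 100 kb, against 3.03 for Mylk. Cnn1, Myh11 and Tagln were less dense than Mylk.

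Other genes of the contractile program and of its paralogues were read under the same 20 kb rule. Their lists were chosen for known roles, but with earlier results of these data known, so the counts are descriptions only. The shares of all protein-coding genes to read these counts against are 67.6% for Slug and 71.3% for Snail in the window, and 13.0% and 51.3% within 1 kb of a gene end. Of 18 further genes of the smooth muscle apparatus and its serum response factor program, 16 (88.9%) had a Slug and 17 (94.4%) a Snail peak. At 2 of them (11.1%) a Slug peak came within 1 kb of a gene end, and at 13 (72.2%) a Snail peak did. Their median span was 68.3 kb, inside the longest quintile of genes, where 91.6% of all genes had a Slug and 81.7% a Snail peak. Srf, the serum response factor gene itself, had 1 Slug peak (68.4) and 1 Snail peak (220), the values being scores. Myocd, which encodes myocardin, had 2 Slug peaks, the higher at 113, and 1 Snail peak at 94.5. The highest Slug scores of the list were at Ppp1r12a, a myosin phosphatase subunit (641), and the coactivator gene Mrtfa (490). The highest Snail scores were at Rhoa, the small GTPase (1577), and again Ppp1r12a (1575). Smtn (smoothelin) had Snail peaks alone, and Myl9, the smooth muscle regulatory light chain, had no peak of either list.

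Around the receptor, all 14 genes of oxytocin signalling, the hormone gene and the proteins downstream of Oxtr, had a Snail peak (71.3% of all genes) and 13 (92.9%) a Slug peak (67.6% of all genes). Their median span was 43.3 kb, inside quintile 4 of gene length, where 75.8% of genes had a Slug and 81.8% a Snail peak. At 13 (92.9%) a Snail peak came within 1 kb of a gene end, against 51.3% of all genes, and at 5 (35.7%) a Slug peak did, against 13.0%. Calm2, a calmodulin gene, had the highest Snail score, 2446. Gnaq, the G protein subunit that couples to the receptor, had the highest Slug score, 515, followed by Calm2 with 437. Rgs2, a regulator of G protein signalling, had a Snail peak alone. At Oxt, the gene of the hormone itself, the higher of 2 Snail peaks scored 1209 and the 1 Slug peak 113.

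The paralogues used outside smooth muscle gave 13 of 17 genes (76.5%) with a Slug and 12 (70.6%) with a Snail peak, near the all-gene shares of 67.6% and 71.3%. Myh9, a non-muscle myosin heavy chain gene, had 7 Slug peaks, the highest at 727, and Mylk3, the cardiac kinase, a Slug peak at 534 and no Snail peak. Cnn3 and Tagln3 had the highest Snail scores, 1367 and 1314. Actc1 (cardiac actin) also had a Slug peak alone, and Mylk2 Snail peaks alone. Acta1 (skeletal actin), Avpr1a and Avpr2, receptors of the related hormone vasopressin, had neither. Within 1 kb of an end, Slug peaks lay at 4 of the 17 (23.5%) and Snail peaks at 7 (41.2%), and Snail peaks at 1 of the 7 members.

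Basal identity genes are the other hallmark of myoepithelial cells. Of 12 such genes 10 (83.3%) had a Slug and 7 (58.3%) a Snail peak, against 67.6% and 71.3% of all genes. Their median span was 40.6 kb, inside quintile 4 of gene length, where the shares were 75.8% and 81.8%. Within 1 kb of an end 4 (33.3%) had a Slug and 5 (41.7%) a Snail peak, against 13.0% and 51.3%. Krt5, Krt14 and Krt17, the basal keratin genes, and Trp63, which encodes the basal factor p63, had Slug peaks alone, as Acta2, Oxtr and 12.0% of all genes did. Krt5 had 4 Slug peaks (highest 129), Krt14 had 3 (187), Krt17 had 3 others (215) and Trp63 had 4 (130). Nrg1 had the highest Slug score of the list, 285, and Jag1 and Itgb1 the highest Snail scores, 1174 and 935. Sparc had Snail peaks alone and Mme, which encodes the myoepithelial surface enzyme CD10, had neither. Of 10 luminal genes 9 had a Slug and 7 a Snail peak, against the same 67.6% and 71.3%, and within 1 kb of an end 2 had a Slug and 4 a Snail peak. The median span of the luminal genes was 34.9 kb, in the same length quintile as that of the basal genes. The highest Slug scores were at Kit (1435) and Krt8 (870) and the highest Snail scores at Gata3 (832) and Krt18 (625). Kit and Pgr had Slug peaks alone, and Prlr had neither. Slug peaks without Snail peaks were thus found near genes of both layers.

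**Figure D4:**
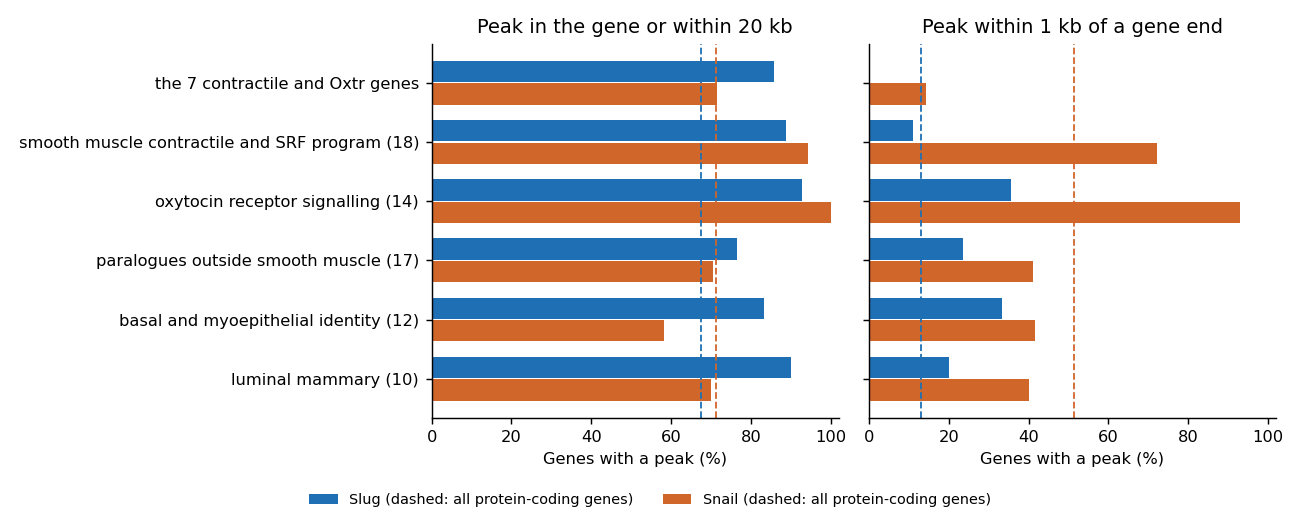
Bars give the percentage of genes of each list with a Slug (blue) or Snail (orange) peak in the gene or within 20 kb (left) and within 1 kb of a gene end (right), with the number of genes in brackets. Dashed lines are the shares of all protein-coding genes. On the right the 7 genes have no Slug bar, and their Snail bar (1 gene) ends left of the dashed line at 51.3%, as do those of the paralogues (7 of 17), the basal genes (5 of 12) and the luminal genes (4 of 10). Those of the further contractile genes (13 of 18) and the signalling genes (13 of 14) end right of it.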

How the data were processed

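ChIP-seq peak lists of 1 Slug library (pBl.1G) and 1 Snail library (pBl.3G) were used. Per the labels' protocols, fixation took 10 min in 1% formaldehyde, and DNA was sonicated to about 200 to 500 bp. The submitters' processing notes name Bowtie, MACS 1.4.2 and mm10. The control and the settings of peak calling were not given in the sources used here. The authors deposited a position and a score per peak, whose scale the files do not state and which depends on depth, so Slug and Snail scores are not compared. Depth is unknown, and no peak has a height or an error.

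Starts were made 1-based. A peak counted for a gene when 1 bp or more lay in its RefSeq span (GRCm38.p6) or the 20 kb on either side, and peaks were shared at 1 bp of overlap. Strand and start sites came from the promoter table, where listed. Python 3.11.15, numpy 2.4.6 and pandas 2.3.3 were used for counts, matplotlib 3.10.9 for plots, and the counting was tested on simulated data. With 1 library per factor there is no test. The members and the 5 lists (71 genes, all found) were chosen with earlier results of these data known. Named were the 7 genes, the genes at their peaks, Srf, Myocd, Trp63, Krt5 and Krt14, the 2 highest-scoring genes of each list per factor, and genes that make up a small category; 1 gene so chosen is not reported here. The other window, score and overlap settings are given in the closing section.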

Additional observations from a re-analysis of the deposited data

How the results depend on the processing

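Of 32 alternatives 17 stayed within 1.5 times the reported count. Members with a peak were 3 for Slug and 3 for Snail with a window of 1 kb, against 40.7% and 60.0% of all protein-coding genes. Peaks in the windows were 8 for Slug and 3 for Snail at 1 kb, and 11 and 7 at 10 kb. At 50 kb the Snail peaks were 27. With scores of at least 100 the Slug peaks fell from 17 to 9, where 16510 of the 41612 peaks of the whole Slug list scored as high. Shared peaks fell to 1 Slug and 1 Snail peak both with a reciprocal overlap of 50% and with scores of at least 100. The overlap rule left the pair inside Mylk and the score rule the pair before Mylk, so no pair met both. The first of these rules cannot be met by a narrow Slug peak inside a much wider Snail peak. Within 5 kb of an end 1 member had a Slug and 3 a Snail peak, against 32.7% and 59.5% of all protein-coding genes. With scores of at least 100 the number with a Snail peak within 1 kb was 0, since the Tagln peak scored 61.1. The share of all genes at that score is not given here. No paired analysis was possible because each factor has 1 library and no replicate. Unknown depth limits all statements on missing peaks: a gene without a peak had none in that list.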

Other observations

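Just outside the 20 kb windows, from 20 to 50 kb, lay 8 Slug peaks with scores from 59.9 to 337 and 15 Snail peaks with scores from 50.8 to 1406. The strongest Slug peak among them lay inside Cep20, 22.7 kb beyond Myh11, and the peak closest to a window was a Snail peak 22.0 kb beyond Cnn1 that scored 149. The Snail peaks with scores of 892 at the end of Rnf214 and 937 at the end of Nde1 lay 22.2 kb from Tagln and 30.5 kb from Myh11. Stronger Snail peaks lay 48.5 kb from Tagln (score 1406) and 24.5 kb from Myh11 (score 1140). Fas, the death receptor gene beyond Acta2, carried a Snail peak (score 73.7) at its end, 34.8 kb from Acta2. Oxtr had 1 further Slug peak, with a score of 177, and no Snail peak in this range.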
